A study of Mus musculus with 8 samples.

Results

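Transcripts for 9 matrix enzymes of the tricarboxylic acid cycle were examined in the hearts of LLC1 tumor-bearing and control mice. The genes were Cs, Idh2, Idh3a, Idh3b, Idh3g, Ogdh, Suclg1, Sucla2 and Mdh2. They were taken by gene name from the deposited count table, which lists 43346 genes, and all 9 were among the 16111 genes that passed the filter on low counts. The heart ventricles came from male C57BL/6 mice injected subcutaneously in the left flank at 7 weeks of age, either with 1000000 LLC1 cells (Lewis lung carcinoma, a mouse lung tumor line) or with PBS vehicle. There were 4 mice per group, and tissue was taken 14 days after injection. Each mouse is named by its injection and the code in its label, and values are given in the order LLC1 1-2, 1-3, 1-5 and 2-2, then PBS 1-1, 1-3, 2-1 and 2-5.

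The tricarboxylic acid cycle runs in the mitochondrial matrix. It oxidizes the acetyl group of acetyl-CoA, which the heart makes mostly from fatty acids, and hands the electrons on as NADH and FADH2 to the respiratory chain. Citrate synthase starts the cycle, isocitrate dehydrogenase and the 2-oxoglutarate dehydrogenase complex carry out its oxidative decarboxylations, succinyl-CoA ligase makes a nucleoside triphosphate, and malate dehydrogenase regenerates oxaloacetate.

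Idh2, Idh3g and Idh3b rose in the LLC1 mice, by 45.8%, 27.8% and 18.4%, and no member was called lower, except Sucla2 under 1 alternative scaling described with the tissue markers. Idh2 encodes the NADP-dependent mitochondrial isocitrate dehydrogenase, and Idh3b and Idh3g encode the beta and gamma subunits of the NAD-dependent enzyme. Idh3a, which encodes the catalytic alpha subunit of that same enzyme, had a change of 2.77% that did not pass the test. The 2 succinyl-CoA ligase subunits measured here as members, Suclg1 and Sucla2, also did not pass.

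By edgeR's quasi-likelihood test with Benjamini-Hochberg adjustment over all genes tested (FDR under 0.05), 3 of the 9 members were higher and 0 were lower. Over all genes tested, 8.73% were called, 4.12% higher and 4.61% lower. Abundant transcripts were called higher more often than that. Of the 325 tested genes whose mean PBS level was at or above that of the lowest member, 22.2% were higher and 2.15% were lower, and their median log2 fold change was 0.13. The median over the members was 0.21, and over all genes tested it was -0.01. At an unadjusted edgeR p under 0.05, 5 members were higher and 0 lower, but at least 4052 of the 16111 genes reached that level in either direction. DESeq2 and limma-voom each called 4 members higher and 0 lower. Over all genes tested, DESeq2 called 910 higher and 847 lower, and limma-voom called 682 higher and 703 lower. With libraries scaled to total counts alone, 2 members, Idh2 and Idh3g, were called higher, against 225 higher and 793 lower of all genes tested.

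The bases just upstream of Idh2, Idh3b and Idh3g are shown because these 3 members were called higher. Whether they are regulated together was not tested. They were taken from the RefSeq promoter windows (GRCm38.p6, 250 bases before to 50 after the gene start) and cut to the part that no GENCODE M21 exon covers. Capitals mark the letters AAGATGGCG, the core recognized by the factor YY1.
Idh2, chr7:80115393-80115600, minus strand: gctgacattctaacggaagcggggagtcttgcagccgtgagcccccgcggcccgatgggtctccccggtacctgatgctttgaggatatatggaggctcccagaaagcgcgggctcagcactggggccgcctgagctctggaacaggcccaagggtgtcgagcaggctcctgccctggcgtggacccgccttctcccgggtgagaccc
Idh3b, chr2:130284548-130284701, minus strand: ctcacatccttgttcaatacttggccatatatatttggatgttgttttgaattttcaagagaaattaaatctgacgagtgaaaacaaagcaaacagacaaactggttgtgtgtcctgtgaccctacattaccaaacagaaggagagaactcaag
Idh3g, chrX:73786898-73787027, minus strand: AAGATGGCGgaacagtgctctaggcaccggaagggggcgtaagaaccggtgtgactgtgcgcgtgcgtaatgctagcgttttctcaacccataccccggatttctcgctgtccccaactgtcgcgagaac

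The stretch shown for Idh3g is the whole interval between its start and that of Ssr4, which lies 131 bases away on the opposite strand and encodes a subunit of the translocon-associated protein complex. Ssr4 stood at 35.7 ± 1.63 CPM in the LLC1 mice and 33.3 ± 3.15 CPM in the PBS mice (SD, n = 4 each), a log2 fold change of 0.10 (SE 0.08, FDR 0.439). Of the members, 8 matched a RefSeq window, and Idh3a had no entry. Both strands of each window were searched for 5 motifs. The YY1 letters were in the Idh3g window and in 1.40% of all 32851 windows. GGGCGGGG, bound by SP1, was in the Cs, Ogdh, Sucla2 and Mdh2 windows and in 17.6% of all windows. GCGCATGCG, bound by NRF1, was in an Ogdh window and in 1.75% of all windows. TNAAGGTCA, bound by estrogen-related receptors, and CCGGAAGT, bound by GABPA, were in no member's window and in 1.28% and 3.89% of all windows. No 2 of these motifs matched the same bases in a member's window. A match in these letters describes the sequence and is not evidence of binding.

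Citrate synthase (Cs) condenses acetyl-CoA with oxaloacetate and is often used as a marker of mitochondrial content. Cs (ENSMUSG00000005683, chr10:128337832-128362479, mm10) had 1766, 1775, 1789 and 1716 CPM in the LLC1 mice and 1639, 1653, 1716 and 1548 CPM in the PBS mice, where CPM is counts per 1000000 counts after TMM scaling. The groups met at 1 value, with PBS 2-1 just above LLC1 2-2. The means were 1761 ± 31.9 and 1639 ± 69.6 CPM (SD, n = 4), and the log2 fold change of 0.10 (95% interval -0.01 to 0.22) had an FDR of 0.301 and an exact permutation p of 0.0571 (two-sided).

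Idh2 (ENSMUSG00000030541, chr7:80094846-80115392) makes NADPH in the matrix, and it had the largest log2 fold change of the members. Its levels were 2613, 2338, 2386 and 2331 CPM in the LLC1 mice and 1641, 1616, 1599 and 1778 CPM in the PBS mice. The groups lay far apart, and the gap between them was wider than the whole range of either group. The means were 2417 ± 133 and 1658 ± 81.5 CPM (SD, n = 4 each). The log2 fold change was 0.54 (SE 0.07, FDR 0.00111), and the exact permutation p was 0.0286, the smallest that 4 mice against 4 can give. By p-value, Idh2 was 42nd among all genes tested. Of the 325 abundant genes, 2 were called higher with a larger fold change, Myom2 (log2 0.79) and Glul (log2 0.58), both looked up after the values were seen.

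The NAD-dependent isocitrate dehydrogenase is built from alpha, beta and gamma subunits, and its 3 transcripts did not move alike. Idh3g (ENSMUSG00000002010, chrX:73778963-73786897) had 658, 618, 668 and 581 CPM in the LLC1 mice and 476, 486, 489 and 525 CPM in the PBS mice. Every LLC1 mouse was above every PBS mouse. The means were 631 ± 40.0 and 494 ± 21.6 CPM (SD, n = 4), with a log2 fold change of 0.35 (SE 0.07, FDR 0.00934, exact permutation p = 0.0286).

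Idh3b (ENSMUSG00000027406, chr2:130279309-130284547) had 978, 894, 966 and 878 CPM in the LLC1 mice and 807, 762, 797 and 772 CPM in the PBS mice. The groups did not overlap, and LLC1 1-2 and 1-5 were the highest. The log2 fold change was 0.24 (SE 0.06, FDR 0.0324, exact permutation p = 0.0286). This call was the least firm of the 3, since it held in only 3 of the 8 fits with 1 mouse left out, and its FDR reached 0.110 without PBS 1-3. The call was also lost without LLC1 1-2 (0.0822), LLC1 1-3 (0.0707), LLC1 1-5 (0.102) and PBS 2-1 (0.0668), and with scaling to total counts alone (log2 0.19, FDR 0.0981).

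Idh3a (ENSMUSG00000032279, chr9:54586511-54604661) had 672, 665, 734 and 607 CPM in the LLC1 mice and 682, 665, 640 and 619 CPM in the PBS mice. The lowest value of all was an LLC1 mouse, and the groups overlapped throughout. The log2 fold change of 0.04 had a 95% interval from -0.10 to 0.18 (FDR 0.767).

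**Figure D1:**
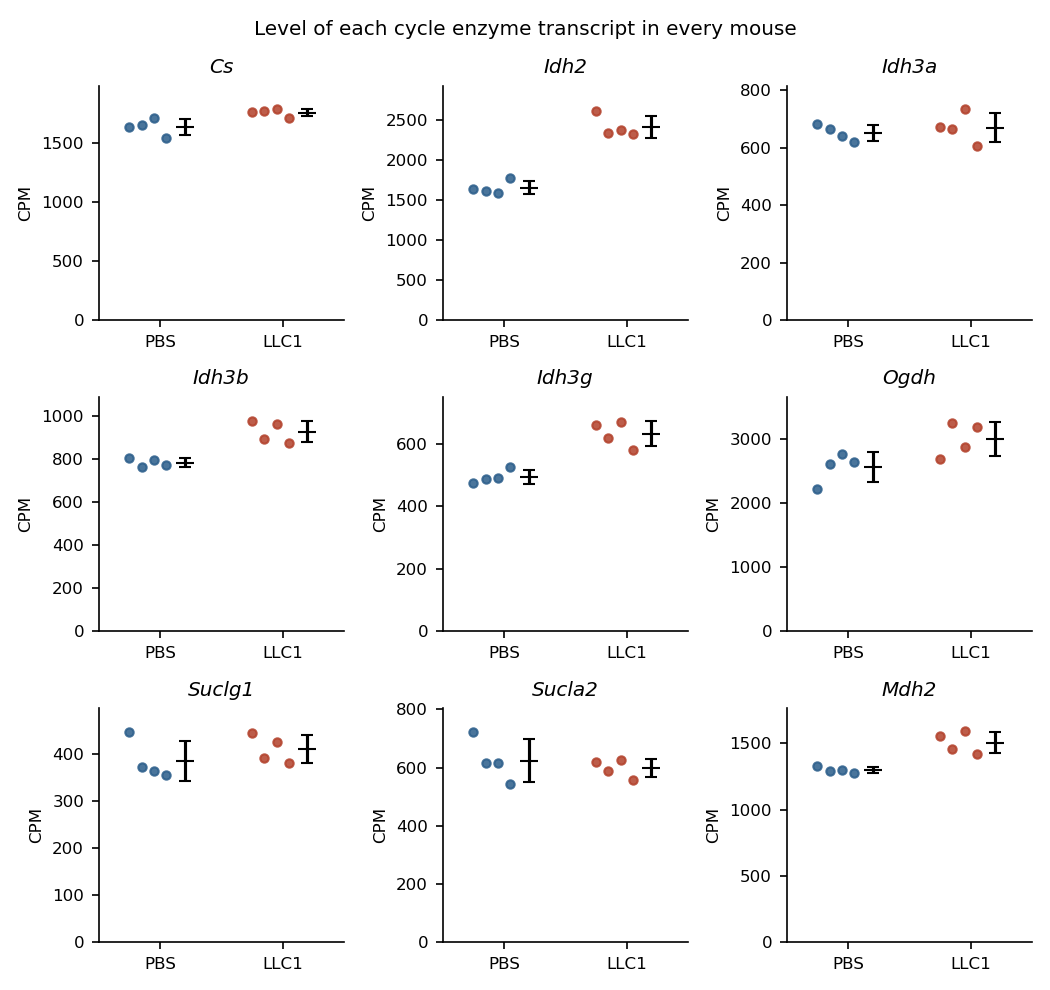
Level of each of the 9 transcripts in TMM-normalized CPM (vertical axis, from 0) in every PBS mouse (blue) and LLC1 mouse (red), with black bars for the group mean ± SD of 4 mice. The groups are apart for Idh2, Idh3b, Idh3g and Mdh2 and overlap for the other 5.

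Ogdh encodes the thiamine-dependent first component of the 2-oxoglutarate dehydrogenase complex. Ogdh (ENSMUSG00000020456, chr11:6291633-6356642) had 2689, 3259, 2885 and 3199 CPM in the LLC1 mice and 2227, 2609, 2767 and 2649 CPM in the PBS mice. The spread within each group was wide, and LLC1 1-2 lay below PBS 2-1. The log2 fold change was 0.23 (95% interval 0.06 to 0.40) with an FDR of 0.118 and an exact permutation p of 0.0571, so a change close to that of Idh3b did not pass the test.

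Succinyl-CoA ligase pairs a common alpha subunit, Suclg1, with an ATP-forming (Sucla2) or GTP-forming (Suclg2) beta subunit. Suclg1 (ENSMUSG00000052738, chr6:73248382-73276911) had 444, 391, 425 and 382 CPM in the LLC1 mice and 447, 373, 365 and 355 CPM in the PBS mice. Sucla2 (ENSMUSG00000022110, chr14:73525319-73596142) had 618, 588, 626 and 557 CPM against 722, 615, 614 and 545 CPM. For both genes PBS 1-1 was the highest of all 8 mice, and the groups overlapped. The log2 fold changes were 0.09 for Suclg1 (95% interval -0.07 to 0.26, FDR 0.521) and -0.06 for Sucla2 (95% interval -0.23 to 0.10, FDR 0.682). Without PBS 1-1 they were 0.17 and 0.01, and neither was called.

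Mdh2 oxidizes malate to oxaloacetate and takes part in the malate-aspartate shuttle. Mdh2 (ENSMUSG00000019179, chr5:135778480-135790398) had 1557, 1453, 1588 and 1417 CPM in the LLC1 mice and 1327, 1290, 1300 and 1274 CPM in the PBS mice. The groups did not overlap, and the PBS mice lay close together, with a coefficient of variation of 1.72%. The log2 fold change of 0.21 (SE 0.06) had an FDR of 0.0537, just outside the threshold, and an exact permutation p of 0.0286. It was called by DESeq2 (FDR 0.00470), by limma-voom (0.0339), with robust empirical Bayes (0.0414) and without PBS 1-1 (0.0343).

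In all, 4 of the 9 members had groups that did not overlap, each with the LLC1 mice higher, against 17.2% of all genes tested that did not overlap, 8.89% with the LLC1 mice higher and 8.27% with them lower. Within the LLC1 group, mouse 2-2 had the lowest value for 8 of the 9 members. The single-library counts behind these values ran from 5215 to 63571, so counting error alone was at most 1.38%. The members together took 1.17% ± 0.0141 of all counts in the LLC1 mice and 1.03% ± 0.0663 in the PBS mice (SD, n = 4 each). No other transcript matched a member at 97% identity or more over 150 bases, and the only exon overlap with another gene was 5 bases between Idh3b and Nop56.

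Levels of different members were compared per kilobase of the length deposited for each gene. That length may differ from the length of the transcript made in heart, so order and ratios between genes are approximate. The order in the PBS mice was Idh2 (641 ± 31.5 CPM per kb), Mdh2 (621 ± 10.7), Cs (580 ± 24.6), Ogdh (470 ± 42.9), Idh3a (271 ± 11.6), Idh3b (229 ± 6.12), Idh3g (183 ± 8.0), Sucla2 (156 ± 18.4) and Suclg1 (83.4 ± 9.14; SD, n = 4). Idh2 and Mdh2 overlapped in the PBS mice, and so did Idh3g and Sucla2. In the LLC1 mice Idh2 reached 934 ± 51.3 CPM per kb and was above Mdh2 (720 ± 39.1) in 4 of 4 mice. Idh3a and Idh3b, apart in the PBS mice, overlapped in the LLC1 mice at 279 ± 21.5 and 271 ± 14.8 CPM per kb.

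**Figure D2:**
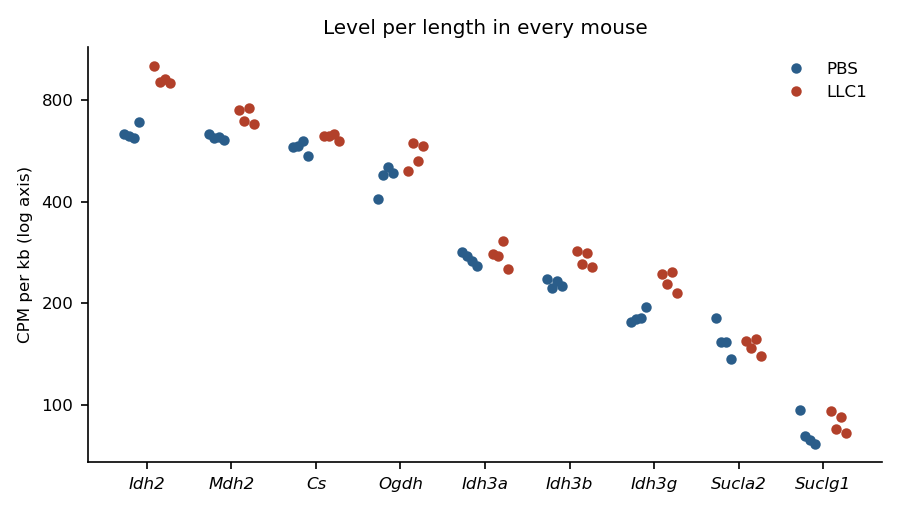
Level of each member in CPM per kb of deposited gene length (log axis) in every PBS mouse (blue) and LLC1 mouse (red), ordered by the PBS mean. On this approximate scale Idh2 is level with Mdh2 in the PBS mice at 641 and 621 CPM per kb. It stands above Mdh2 in the LLC1 mice at 934 and 720.

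Ratios between partner transcripts within each mouse were compared next, since these do not depend on how the libraries are scaled. Of 10 ratios, 6 had groups that did not overlap, each with an exact permutation p of 0.0286 (two-sided) and an adjusted p of 0.0476 over the 10. Several ratios share a gene, so the 6 are not separate findings. The adjusted p is under 0.05 only because 6 ratios reached the smallest possible p. How often other gene pairs do not overlap was not tested. Idh3a per Idh3g was 1.15, 1.21, 1.24 and 1.18 in the LLC1 mice and 1.61, 1.54, 1.47 and 1.32 in the PBS mice. Every LLC1 mouse had less alpha transcript per gamma transcript, with means of 1.19 ± 0.0386 and 1.49 ± 0.122 (SD, n = 4) and a log2 difference of -0.32 (SE 0.06). Idh3a per Idh3b fell from 1.18 ± 0.0492 to 1.03 ± 0.0522. Idh3b per Idh3g, at 1.16 ± 0.0250 against 1.26 ± 0.0761, overlapped (exact p = 0.0857, adjusted 0.0952).

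The NADP-dependent enzyme rose relative to both of its comparators. Idh2 per Idh3a was 3.61, 3.26, 3.02 and 3.57 in the LLC1 mice and 2.23, 2.25, 2.32 and 2.67 in the PBS mice. The lowest LLC1 ratio was above the highest PBS ratio, and the log2 difference was 0.51 (SE 0.08). Idh2 per Idh1, the cytosolic NADP-dependent enzyme, was 54.5 ± 7.54 against 36.5 ± 4.37 (log2 difference 0.58, SE 0.13), while Idh1 itself had a log2 fold change of -0.04 (FDR 0.840). Sucla2 per Suclg1 was lower in the LLC1 mice (1.69 ± 0.0555 against 1.88 ± 0.0738), although neither gene was called alone.

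The 3 remaining ratios overlapped between groups. Mdh2 per Mdh1, the cytosolic enzyme, was 0.793 ± 0.0163 against 0.748 ± 0.0300 (exact p = 0.0571, adjusted 0.0816). Sucla2 per Suclg2 was 1.91 ± 0.0802 against 2.12 ± 0.145 (exact p = 0.0857, adjusted 0.0952). Ogdh per Dlst, 2 components of the same complex, was 2.04 ± 0.225 against 1.81 ± 0.208 (exact p = 0.229), with wide spread in both groups.

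**Figure D3:**
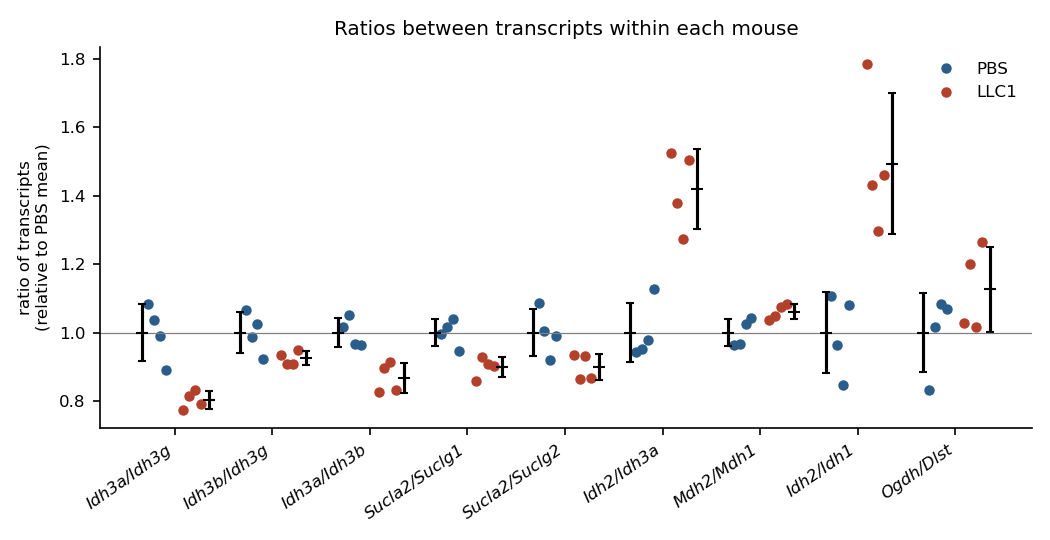
Ratios of counts per kb between the named pairs in every PBS mouse (blue) and LLC1 mouse (red), each divided by its PBS mean (vertical axis), with black bars for mean ± SD of 4 mice. The LLC1 mice lie wholly below the PBS mice for Idh3a/Idh3g, Idh3a/Idh3b and Sucla2/Suclg1 and wholly above for Idh2/Idh3a and Idh2/Idh1.

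The other subunits and enzymes of the cycle gave a similar count, with 3 of 9 called higher and 0 lower and a median log2 fold change of 0.13. Those called included Sdhb (log2 0.26, FDR 0.0338) and Sdha (0.23, FDR 0.0498), the iron-sulfur and flavoprotein subunits of succinate dehydrogenase. Sdhc and Sdhd, its membrane anchors, had log2 fold changes of 0.13 (FDR 0.193) and 0.06 (FDR 0.594). The fumarase gene Fh1 was not called (0.18, FDR 0.106), although it and Sdhc did not overlap between groups. Of the 9 genes, 5 did not overlap, each with the LLC1 mice higher, against 8.89% of all genes tested. Dlst (0.06, FDR 0.590) and Dld (-0.06, FDR 0.734), the partners of Ogdh, and Suclg2 (0.09, FDR 0.453) were not called either. The 3 calls in this list ranged from 0 to 4 when 1 mouse was left out. It was 0 without LLC1 1-2, 1-3 or 1-5 or PBS 1-3, and 1 without PBS 2-1. With scaling to total counts alone it was 0.

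**Figure D4:**
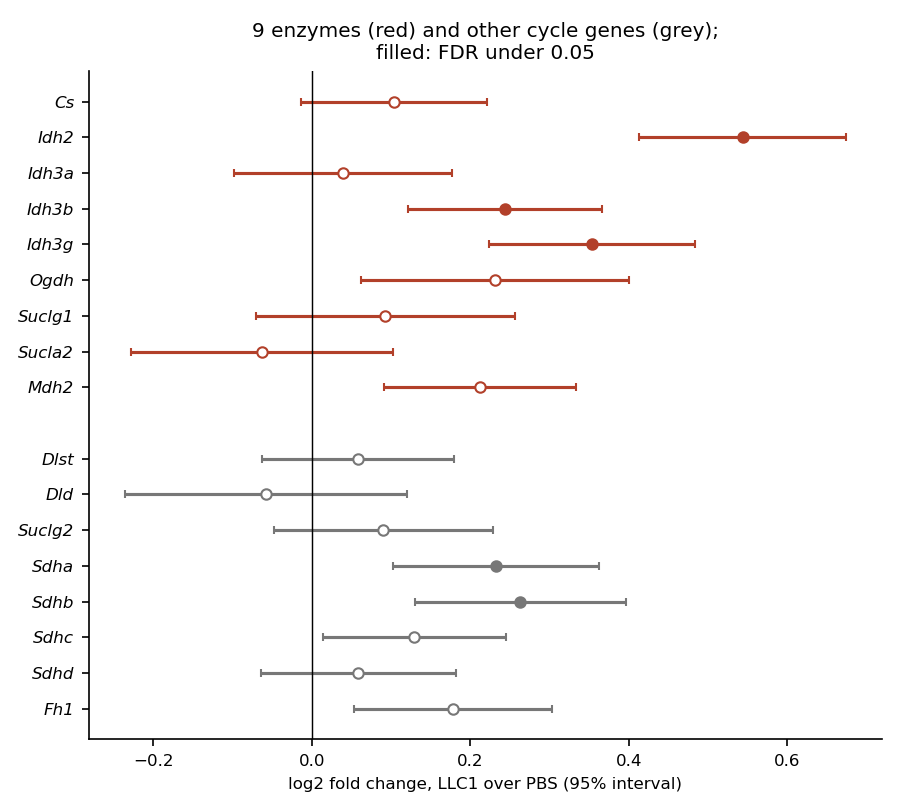
Log2 fold change of LLC1 over PBS mice (horizontal axis) with its 95% interval for the 9 members (red) and other genes of the cycle named in the text (grey), filled where FDR is under 0.05. Idh2 stands furthest right at 0.54, and Idh3a, at 0.04, lies near 0 beside Idh3b and Idh3g at 0.24 and 0.35.

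Genes that feed or drain the cycle were counted in 3 lists, to be read against the 4.12% of all genes and the 22.2% of abundant genes that were called higher. Of 13 genes of pyruvate dehydrogenase and its entry, only Pdk2 was called (log2 0.37, FDR 0.0168), a kinase that inhibits the complex. That call was lost without LLC1 1-3, LLC1 2-2 or PBS 1-3. Of 11 genes of anaplerosis and amino acid entry, 3 were called: Pccb of propionyl-CoA carboxylase (0.26, FDR 0.0147), the malic enzyme Me3 (0.30, FDR 0.0185) and pyruvate carboxylase Pcx (0.29, FDR 0.0334). The count was 0 without PBS 1-3 and 1 without LLC1 1-3. Without PBS 2-5, Oxct1, which activates ketone bodies, was called lower (log2 -0.25, FDR 0.0474). Of 11 cytosolic counterparts and carriers, Got1, the cytosolic aspartate aminotransferase, was called (0.27, FDR 0.0320). It was called in only 2 of the 8 fits with 1 mouse left out, those without LLC1 2-2 or PBS 1-1.

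Of 10 transcription regulators of oxidative genes, Esrra (0.25, FDR 0.0302) and Esrrb (0.33, FDR 0.0352), both estrogen-related receptors, were called, while Ppargc1a had 0.29 (FDR 0.108). The count was 0 without LLC1 1-3, LLC1 1-5, PBS 1-3 or PBS 2-1, and 1 without LLC1 1-2, LLC1 2-2 or PBS 2-5. In each of these 4 lists it was also 0 with scaling to total counts alone. None of 9 modifiers of the cycle enzymes was called by edgeR's test, and DESeq2 called 2 and limma-voom 0. At an unadjusted edgeR p under 0.05 there were 3, a level that at least 4052 of the 16111 genes tested also reached. Across these 5 lists, with all 8 mice and TMM or DESeq2's own scaling, 0 genes were called lower by edgeR, DESeq2 or limma-voom, and 1, Oxct1 (log2 -0.19, FDR 0.172), was lower at an unadjusted p under 0.05.

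By Pearson's r over the 8 mice with the mean of the members' standardized log2 CPM, the genes outside the list with the highest values were Fh1 (r = 0.987), Got1 (0.983), Myom1 (0.975), 4932702P03Rik (0.972) and Esrra (0.971). The lowest were Coro1c (-0.989), Sox7 (-0.986), Mgat3 (-0.986), Oaf (-0.984) and Dkk3 (-0.982). These are descriptions over 8 libraries that include the 2 groups.

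The summed level of the 8 cardiomyocyte markers was 98955 to 105541 CPM in the LLC1 mice and 88595 to 91249 CPM in the PBS mice, without overlap. Myh6 (54333 ± 1434 against 45869 ± 1227 CPM, log2 0.24, FDR 0.0209) made up most of that difference, and Mybpc3 (log2 0.34, FDR 0.00678) was the other marker called higher. The 6 others were not called, with log2 fold changes of 0.22 for Tnnt2, 0.20 for Tnni3, 0.13 for Myl2, 0.03 for Pln, -0.05 for Actc1 and -0.17 for Ryr2. Smooth muscle and pericyte markers summed to 755 to 817 against 867 to 1026 CPM with 0 of 5 called, endothelial markers to 733 to 866 against 848 to 1136 CPM with Kdr called lower, and dividing-cell markers to 2.04 to 4.49 against 13.4 to 42.3 CPM with 3 called lower. Fibroblast markers overlapped at 607 to 681 against 639 to 738 CPM, with Col1a1 and Lum called lower of 5, and macrophage markers overlapped at 116 to 143 against 117 to 178 CPM, with Mrc1 called lower of 4. Erythroid (1428 to 5180 against 1556 to 3097 CPM) and atrial markers (113 to 339 against 123 to 249 CPM) overlapped with 0 called. The summed neutrophil markers were higher without overlap but low, at 1.76 to 2.63 against 0.413 to 1.29 CPM, with S100a8 and S100a9 called higher of 4. Ly6g and Retnlg overlapped between groups and had too few counts to be tested. Lymphocyte and adipocyte markers overlapped and summed to no more than 1.71 and 2.35 CPM. In bulk tissue, more cells of a type and more RNA per cell cannot be told apart, and the part of tissue makeup in the members' changes was not tested.

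With the cardiomyocyte marker counts taken as the library size, a choice made after the data were seen, the median log2 fold change of all genes shifted by -0.18. Myh6, itself called higher, was the largest part of that sum, with a mean of 54333 of 101641 CPM in the LLC1 mice. The scale therefore leans on Myh6 and does not measure cardiomyocyte content. On that scale Idh2 remained called higher (0.36, FDR 0.00348), Idh3g (0.17, FDR 0.0622) and Idh3b (0.06, FDR 0.461) were not called, and Sucla2 was called lower (-0.24, FDR 0.0420). The log2 fold changes of Cs, Suclg1 and Idh3a turned negative and were not called.

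**Figure D5:**
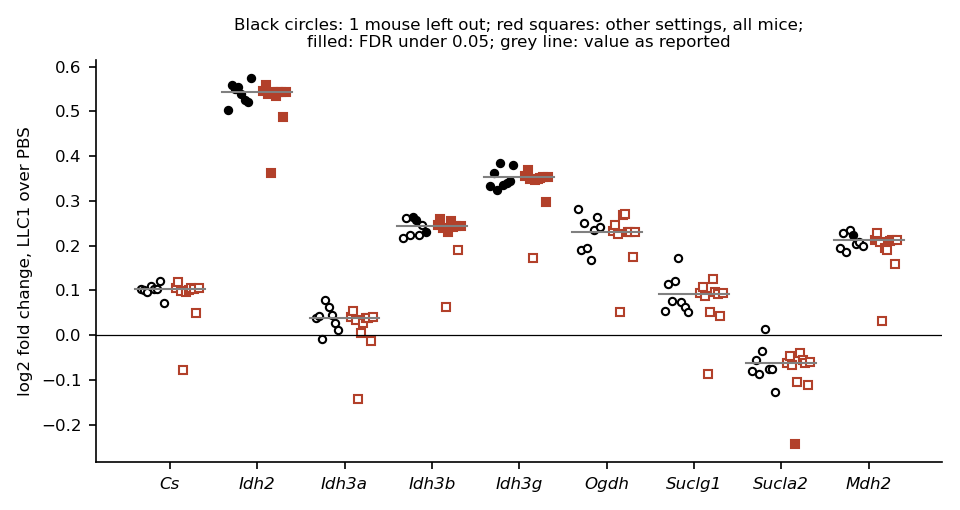
Log2 fold change of each member (vertical axis) with 1 mouse left out (black circles, 8 fits) and under 10 other settings with all mice (red squares), filled where FDR is under 0.05, with a grey line at the value as reported. Idh2 is filled throughout, and the lowest red square of each member is the fit with cardiomyocyte marker counts as library size.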

How the data were processed

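RNA sequencing of heart ventricle from 4 LLC1-injected and 4 PBS-injected mice was used. The authors made TruSeq v2 libraries from miRNeasy RNA and deposited raw read counts per gene for each mouse, not normalized, with mm10 coordinates. The submitters' processing notes name CASAVA, STAR and featureCounts. Versions, gene annotation and strand setting are not given in the sources used here. Library totals ran from 15342214 to 19747596 counts (LLC1) and from 12480706 to 16192158 counts (PBS).

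Counts were compared with edgeR 4.0.16 in R 4.3.3 (filterByExpr, TMM, quasi-likelihood F-test, Benjamini-Hochberg over 16111 genes), and an FDR under 0.05 was a call. SE is |log2 fold change| over the square root of F. Exact permutation tests used all 70 arrangements of the 8 mice. Replicates are separate mice. The members, lists, ratios and motifs were chosen with earlier results of these data known. Named genes are the members, genes of the lists that were called or entered a ratio, and the 5 genes most and least like the members' mean. Alternatives were DESeq2 1.42.0, limma-voom (limma 3.58.1), upper-quartile and total-count scaling, looser and stricter filters, robust empirical Bayes, a covariate for the first digit in each mouse's code, gene-length offsets, and each mouse left out on the same 16111 genes. BLAST 2.17.0 was used to look for near-identical transcripts. The fits were tested on simulated counts, where direction was right for every call, and changes of the size seen in most members were called far less often than large ones, so a member that was not called is not shown to be unchanged. Values of some genes of the lists and ratios are not reported here, while the counts include them. Adgre1 was not analysed here, nor were Mmut (listed as Mut), Csskmt, Mettl12 and Kgd4 under those names.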

Additional observations from a re-analysis of the deposited data

How the results depend on the processing

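Idh2 kept its call in all 8 fits with 1 mouse left out and in all 10 other settings, and Idh3g in all 8 and in 9 of 10. With 1 mouse left out, calls over all genes ranged from 546 (without PBS 1-3) to 1923 (without PBS 1-1), against 1406 with all mice, and members called higher from 2 to 4. Genes called higher ranged from 0 to 4 in the rest of the cycle, from 0 to 2 in pyruvate dehydrogenase entry, from 0 to 3 in anaplerosis (0 to 1 lower), from 0 to 1 in the cytosolic list, from 0 to 3 among the regulators and from 0 to 1 among the modifiers. Ratios not overlapping ranged from 6 to 8, and the ratio of the highest to the lowest member per kb in the PBS mice from 7.31 to 8.15. With 1 mouse left out the smallest exact p is 0.0571, so the ratios were then followed by overlap alone.

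Scaling to total counts gave 225 genes higher and 793 lower, against 663 and 743, 2 members higher, and 0 calls higher in the rest of the cycle and in the pyruvate dehydrogenase, anaplerosis, cytosolic and regulator lists. Cardiomyocyte marker counts as library size gave 4085 calls (173 higher, 3912 lower), 1 member higher and 1 lower, 0 higher in those 5 lists, and lower calls of 1 in pyruvate dehydrogenase entry, 2 in anaplerosis, 1 in the cytosolic list and 1 among the regulators. DESeq2 called 3 in the cytosolic list and 2 modifiers. Gene-length offsets called 2 in pyruvate dehydrogenase entry, 2 in the cytosolic list and 1 modifier. The loose filter called 2 modifiers, and robust empirical Bayes and the covariate 1 each. The cause of these differences was not tested. No paired analysis was possible because the groups share only the replicate code 1-3, carried by different mice.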
